A study of Mus musculus with 20 samples.

Results

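The 10 genes described here encode the receptors, membrane carriers and acyl-CoA synthetases through which mouse colon senses, takes up and activates short-chain fatty acids. They were chosen by name: every row of the deposited count tables whose gene symbol was Ffar2, Ffar3, Hcar2, Slc16a1, Slc16a3, Slc16a7, Slc5a8, Bsg, Acss1 or Acss2 was taken. Each symbol had 1 row in the chow table and 1 in the high fat diet (HFD) table, so 10 of 10 genes were found among 56748 listed genes. The study asked how loss of Pcca acts on colon transcription. Its product is a subunit of the carboxylase that disposes of propionyl-CoA in mitochondria. Poly-A RNA of mouse colon was sequenced in 20 libraries, 4 in each of 5 groups. The group called Chow Vill lacked Pcca in the intestine through Villin-Cre, which acts in the epithelium of small and large bowel. The group Chow Alb lacked Pcca in the liver through Albumin-Cre, which acts in hepatocytes, so its colon keeps the gene. Chow ff were littermates with the floxed Pcca allele. The chow groups were 9 weeks old at death, and all mice were fasted before it. HFD Vill and HFD ff were the corresponding Villin-Cre and floxed mice, labelled male, which took 60% of dietary energy as fat over 12 weeks and were 18 weeks old. All groups carried floxed Pcca, none is described as carrying Cre alone, and in Vill mice the stromal, immune and muscle cells of the colon keep Pcca. The labels number the libraries but do not say that each came from a separate mouse, so the tests measure the spread between libraries.

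Short-chain fatty acids (acetate, propionate and butyrate) are made by bacteria that ferment fibre in the large bowel. Colonocytes take them up through proton-coupled and sodium-coupled monocarboxylate carriers, activate them to their CoA esters and burn butyrate as a main fuel, while G protein-coupled receptors on enteroendocrine, immune and epithelial cells report their presence. Propionate is carried and sensed by the same proteins as the other acids, and its CoA ester is the substrate of the enzyme that Pcca helps to build.

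Promoters are shown for 3 of the 10 genes. Slc5a8 and Acss2 were taken because they followed the same gradient between libraries. Slc16a3 was taken because it had the widest spread among genes of the 10 with a mean of at least 5 CPM. RefSeq promoter windows (build GRCm38.p6, 250 bases before to 50 after the start) were matched for 7 of the 10 genes. Coordinates of these windows are in that build and differ from the mm39 coordinates of the count tables. In the windows of Slc5a8 and Acss2 capitals mark the GC box letters CCGCCC, and in the window of Slc16a3 they mark ACGTG, the core of the hypoxia response element.
Slc5a8, chr10:88885742-88886041, plus strand: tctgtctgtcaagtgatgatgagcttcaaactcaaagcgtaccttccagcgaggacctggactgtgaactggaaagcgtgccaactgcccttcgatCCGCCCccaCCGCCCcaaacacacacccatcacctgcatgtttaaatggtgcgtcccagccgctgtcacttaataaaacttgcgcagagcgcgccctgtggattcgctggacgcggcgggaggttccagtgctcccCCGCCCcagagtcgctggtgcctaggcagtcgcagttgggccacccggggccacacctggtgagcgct
Acss2, chr2:155517793-155518092, plus strand: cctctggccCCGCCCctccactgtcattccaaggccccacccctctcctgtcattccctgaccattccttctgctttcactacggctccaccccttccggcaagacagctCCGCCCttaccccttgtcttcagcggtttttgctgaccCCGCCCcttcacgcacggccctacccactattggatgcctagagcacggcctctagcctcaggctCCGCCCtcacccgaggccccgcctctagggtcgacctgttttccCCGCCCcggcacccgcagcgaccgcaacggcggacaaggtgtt
Slc16a3, chr11:120948817-120949116, plus strand: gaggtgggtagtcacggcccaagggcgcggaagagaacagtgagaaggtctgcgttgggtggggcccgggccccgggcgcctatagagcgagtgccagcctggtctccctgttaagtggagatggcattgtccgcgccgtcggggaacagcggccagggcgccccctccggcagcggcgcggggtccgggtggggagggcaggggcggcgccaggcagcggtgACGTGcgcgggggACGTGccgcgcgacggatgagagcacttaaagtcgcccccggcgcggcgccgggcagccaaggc
Counting both strands, CCGCCC was found 5 times in the Acss2 window and 3 times in the Slc5a8 window, and 35.7% of 32851 mouse promoter windows held it at least once. It was also found 2 times in the Acss1 window and 1 time each in windows of Slc16a1, Slc16a3 and Ffar2. ACGTG was found 2 times in the Slc16a3 window, 3 times in the Slc16a1 window and 2 times in 1 Ffar2 window. Of all windows 19.6% had a match. In the Slc16a1 window and in that Ffar2 window, 2 of the matches start at adjacent bases. Such a pair is a single CACGTG read on both strands, and so marks a single site. The letters CAATAAA, which posterior Hox proteins prefer, and TTTATNG, which the intestinal factor Cdx2 prefers, were in none of the matched windows, and were in 4.6% and 10.9% of all windows. The sterol regulatory element letters TCACNCCAC were in the Ffar3 window and in no other matched window, Acss2 included, and were in 1.24% of all windows. These matches describe letters and no binding.

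Depth ran from 27.9 to 40.4 M reads assigned to genes per chow library. On HFD it was lower, at 16.9 to 24.4 M. Levels are given as CPM, reads scaled to library size on a scale shared by all 20 libraries. All 12 chow libraries carried Xist and no Ddx3y reads, whereas the HFD libraries were male by their labels and their reads, so diet, age, sex and sequencing table differed together and cannot be told apart. All 8 epithelial markers on the list used, Vil1 and Epcam among them, were measured in every group. Some libraries stood apart: HFD ff 1, HFD ff 3, Chow ff 2 and Chow Vill 1 held 434, 501, 235 and 270.0 CPM of Slc10a2, the ileal bile acid carrier, against at most 27.1 CPM in the other 16 libraries. These 4 libraries also had the lowest summed levels of 4 posterior Hox genes. Chow Alb 2 held 96.5 CPM of squamous epithelium markers. The targeted gene Pcca had 27.9, 33.8, 29.4 and 29.7 CPM in Chow Vill, 58.7, 39.2, 41.4 and 44.0 CPM in Chow Alb, and 54.5, 39.8, 57.7 and 41.2 CPM in Chow ff. Chow Vill thus lay below both other chow groups in each library (exact permutation p = 0.0286 for each pair, the smallest possible, 1.34% and 4.68% of all genes being separate in this way). The fitted log2 fold change against ff of -0.67 did not pass edgeR's quasi-likelihood test after adjustment over all tested genes (adjusted p = 1). Its interval was -1.02 to -0.33, and the unadjusted p of that test was 0.00107, rank 6 of 19701 genes. On HFD, Pcca had 33.4, 37.3, 32.6 and 33.7 CPM in Vill libraries and 28.9, 53.5, 31.1 and 59.5 CPM in ff libraries. These groups overlapped through HFD ff 1 and HFD ff 3, which are set apart above, while HFD ff 2 and HFD ff 4 lay above every HFD Vill library. The deleted exons are not given in the sources used here, so a count over the whole gene can check the labels only in part.

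Read per length, the genes formed a ladder that was nearly the same in each group. Bsg, which encodes basigin, the chaperone that brings the carriers MCT1 and MCT4 to the cell surface, stood highest, with a mean length-scaled level of 388, 324, 364, 346 and 337 CPM per kb in Chow Vill, Chow Alb, Chow ff, HFD Vill and HFD ff. Slc16a1, the gene of MCT1, was the next with 88.0, 99.7, 83.7, 85.8 and 67.5 CPM per kb in the same order of groups. Slc5a8, the gene of the sodium-coupled carrier SMCT1, followed with 80.7, 74.3, 76.7, 63.8 and 51.9 CPM per kb. The ranges of Slc16a1 and Slc5a8 overlapped in all 5 groups, so the order of these carriers did not exceed their spread, whereas both were separate from Bsg above and from Acss1 below in every group. Acss1, which makes acetyl-CoA in mitochondria, had 21.9 to 26.6 CPM per kb as group means, separate from the next gene in each group. Acss2, which makes acetyl-CoA in cytosol and nucleus, had group means of 8.97 to 11.6 CPM per kb and overlapped with Ffar2 in every group. Before scaling to length, the ranges of Acss1 and Acss2 overlapped in every group. In the order of groups above, mean levels of Acss1 were 109, 110, 94.7, 92.5 and 90.5 CPM. Those of Acss2 were 118, 107, 99.0, 104 and 91.2 CPM, above Acss1 in each group except Chow Alb. The order of this pair thus rests on the deposited gene length, which is greater for Acss2. Ffar2 had 4.83 to 9.86 CPM per kb and stood above Acss2 in HFD ff only. Slc16a3, the gene of MCT4, had 1.68 to 3.93 CPM per kb. At the low end Ffar3 had 1.07 to 1.63 CPM per kb, Slc16a7, the gene of MCT2, had 0.571 to 0.792, and Hcar2 had 0.126 to 0.417. Ranges of Ffar3 and Slc16a7 overlapped in each group. In CPM the order was the reverse, with group means of 6.76 to 9.38 for Slc16a7 (11839 bases) and 1.98 to 3.01 for Ffar3 (1849 bases).

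**Figure D1:**
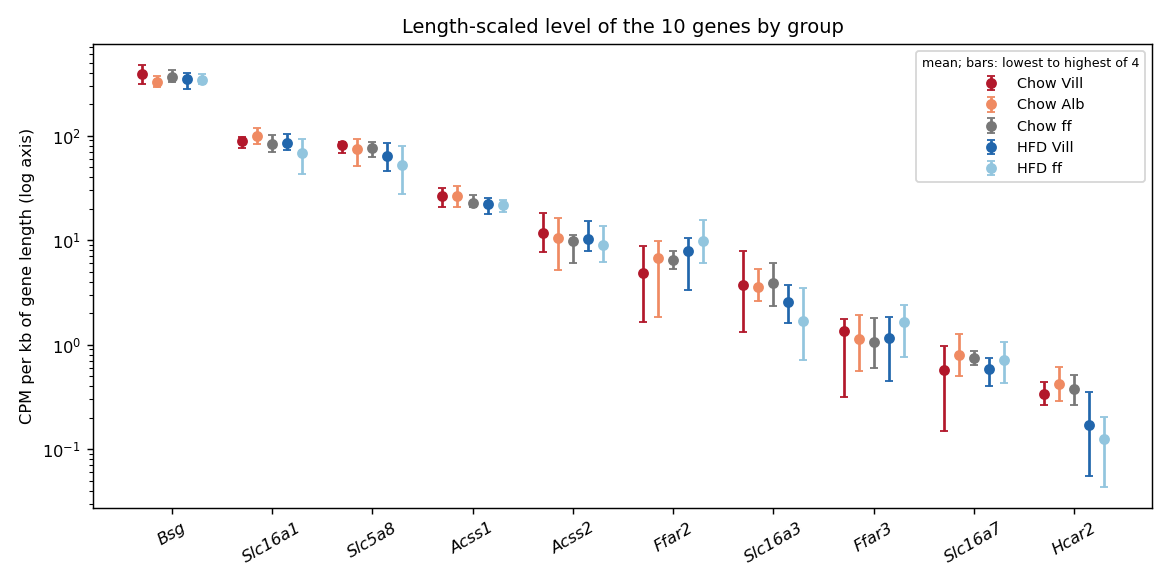
Length-scaled level (CPM per kb of gene length, log axis) of the 10 genes in 5 groups; points are means and bars run from the lowest to the highest of 4 libraries. Bsg lies at 324 to 388 CPM per kb, the carriers Slc16a1 and Slc5a8 at 51.9 to 99.7, and Hcar2 lowest at 0.126 to 0.417.

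The ratio of a pair of genes within a library was also compared between groups, as 4 ratios in 4 pairs of groups. Slc5a8 over Slc16a1, per kb, averaged 0.920 ± 0.073 in Chow Vill, 0.744 ± 0.146 in Chow Alb and 0.926 ± 0.129 in Chow ff (SD, n = 4 each). On HFD it averaged 0.737 ± 0.117 in Vill and 0.750 ± 0.208 in ff libraries. Slc16a1 over Bsg, per kb, averaged 0.235 ± 0.0575 in Chow Vill, 0.314 ± 0.0806 in Chow Alb and 0.234 ± 0.0539 in Chow ff. None of the 16 comparisons passed the exact permutation test, with adjusted p-values of 0.64 and above.

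No genotype moved any of the 10 genes past the test. Comparing Chow Vill with Chow ff, 0 of 10 genes were called at an adjusted p under 0.05, and 0.00508% of 19701 tested genes were called. The groups overlapped for 10 of 10 genes, and 1.34% of all genes had groups that did not overlap. Comparing Chow Alb with Chow ff, 0 of 10 were called, with 0% of all genes called, and 0 of 10 were separate, with 2.83% of all genes separate. Comparing Chow Vill with Chow Alb, 0 of 10 were called against 0.00508% of all genes, and 0 of 10 were separate against 4.68% of all. These 3 comparisons share libraries. Comparing HFD Vill with HFD ff, 9 of the 10 genes passed the filter on low counts, 0 of these 9 were called against 0.00564% of 17715 genes, and 0 of 10 were separate against 2.09% of all. Without the adjustment, 374, 867, 1748 and 612 genes had p under 0.05 in these 4 comparisons, and none of them was one of the 10. DESeq2 called 4, 4, 65 and 4 genes in all, and none of the 10. The difference of the Vill effect between diets was called for 0 of 10 genes, with 0% of 19516 called and 496 at an unadjusted p under 0.05. The median log2 fold change of the 10 genes was 0.07 in Chow Vill against ff, 0.08 in Chow Alb against ff and 0.04 in Chow Vill against Alb, beside 0.00, 0.00 and 0.02 over all tested genes. The authors' deposited table likewise gives adjusted p-values of 1 for all 10 genes in Chow Vill against ff, Chow Alb against ff and HFD Vill against ff.

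**Figure D2:**
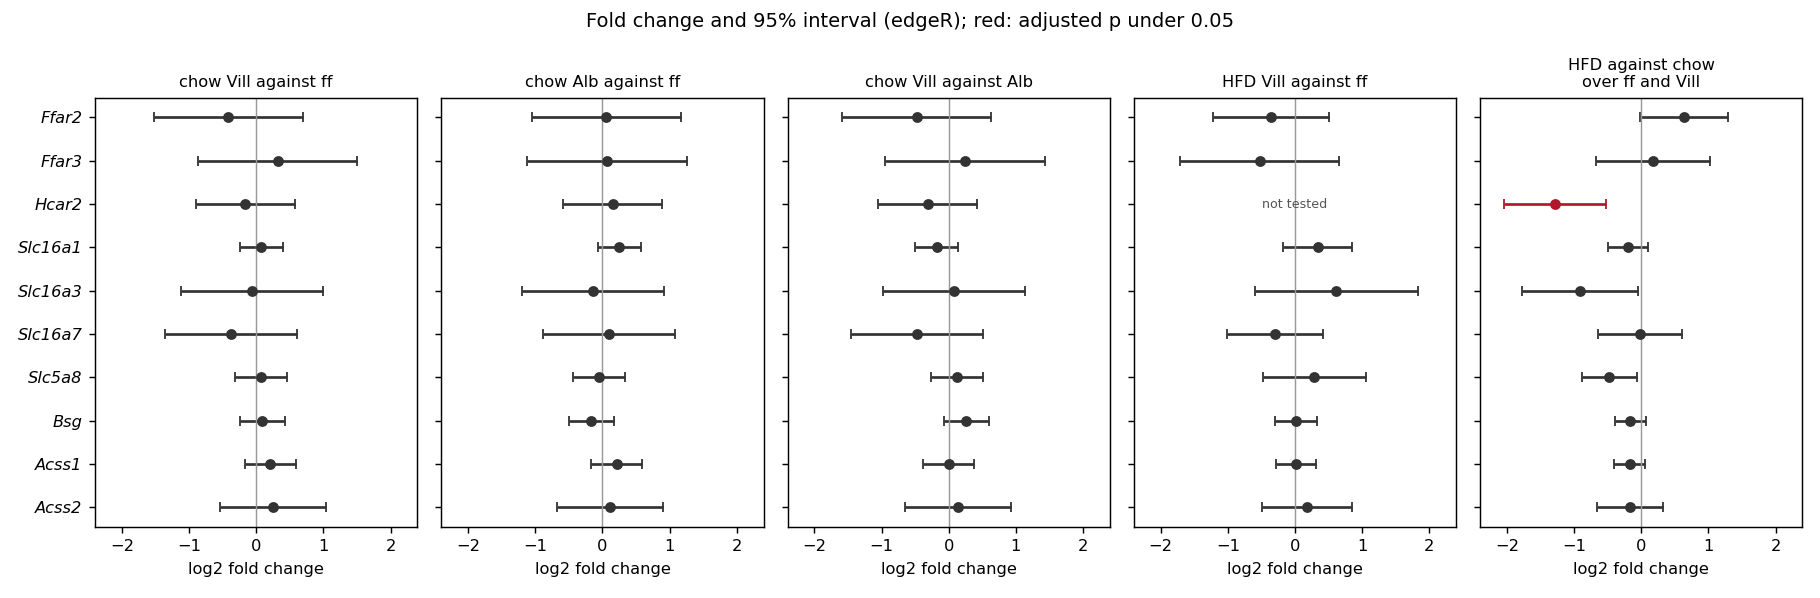
Log2 fold change (x axis) with its 95% interval for each gene in the 4 genotype comparisons and in HFD against chow, from edgeR. The intervals cover 0 for every genotype comparison drawn, Hcar2 was not tested in HFD Vill against ff, and Hcar2 in HFD against chow, at -1.28, is the single red point, with an adjusted p under 0.05.

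Among the receptors, Ffar2 (ENSMUSG00000051314, chr7:30517773-30523200, minus strand) encodes the G protein-coupled receptor FFA2, which prefers acetate and propionate and sits on enteroendocrine and immune cells. Its level was 24.6, 14.3, 4.57 and 10.5 CPM in Chow Vill, 24.5, 5.14, 27.3 and 18.1 CPM in Chow Alb, and 19.2, 14.7, 21.9 and 16.1 CPM in Chow ff. It was 23.4, 25.6, 9.30 and 29.0 CPM in HFD Vill and 43.2, 21.4, 16.8 and 28.6 CPM in HFD ff. Chow Vill 3 and Chow Alb 2 were low, HFD ff 1 was highest, and all groups overlapped. On the log2 scale, its fold change was -0.42 (SE 0.51) in Chow Vill against ff, 0.06 (SE 0.51) in Chow Alb against ff and -0.35 (SE 0.38) in HFD Vill against ff. The interval of the Chow Vill change ran from -1.52 to 0.69. In bulk tissue, fewer cells of a type and less RNA per cell cannot be told apart.

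Ffar3 (ENSMUSG00000019429, chr7:30553755-30555603, minus strand) encodes FFA3, which prefers propionate and butyrate and is known from enteroendocrine cells and peripheral neurons. The gene lies on the same strand as Ffar2, 30555 bases away. It had 3.24, 3.10, 0.586 and 2.97 CPM in Chow Vill, 3.53, 1.04, 2.12 and 1.66 CPM in Chow Alb, and 2.16, 3.32, 1.11 and 1.35 CPM in Chow ff. It had 3.42, 2.44, 0.836 and 1.82 CPM in HFD Vill and 4.40, 1.40, 4.38 and 1.87 CPM in HFD ff. Chow Vill 3 was again the lowest of its group, as it was for Ffar2, and the groups overlapped. These levels rest on 16 to 125 reads a library. The log2 fold change was 0.32 (SE 0.54) in Chow Vill against ff and -0.52 (SE 0.52) in HFD Vill against ff, and the HFD value was 0.39 without HFD ff 1 and HFD ff 3. Per length, Ffar2 over Ffar3 averaged 3.90 ± 1.42 in Chow Vill, 5.91 ± 2.41 in Chow Alb and 7.46 ± 4.27 in Chow ff (SD, n = 4 each; exact permutation p = 0.171 for Chow Vill against ff, adjusted p = 0.64 over 16 ratio tests).

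Hcar2 (ENSMUSG00000045502, chr5:124001633-124003562, minus strand) encodes the receptor of beta-hydroxybutyrate, butyrate and niacin, known from adipocytes, macrophages, neutrophils and colonic epithelium. It had 0.582, 0.845, 0.516 and 0.656 CPM in Chow Vill, 0.560, 1.17, 0.730 and 0.764 CPM in Chow Alb, and 0.583, 0.506, 0.992 and 0.831 CPM in Chow ff. It had 0.107, 0.276, 0.261 and 0.681 CPM in HFD Vill and 0.0846, 0.311, 0.393 and 0.187 CPM in HFD ff. The chow groups overlapped among themselves, and of the HFD libraries HFD Vill 4 alone reached into the chow range. The chow levels rest on 16 to 45 reads a library and the HFD levels on 2 to 15 reads. Its log2 fold change was -0.16 (SE 0.34) in Chow Vill against ff and 0.15 (SE 0.34) in Chow Alb against ff, within the spread between libraries. On HFD the gene failed the filter on low counts, and without that filter the log2 fold change of Vill against ff was 0.45 with an adjusted p of 0.951 by edgeR's quasi-likelihood test.

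**Figure D3:**
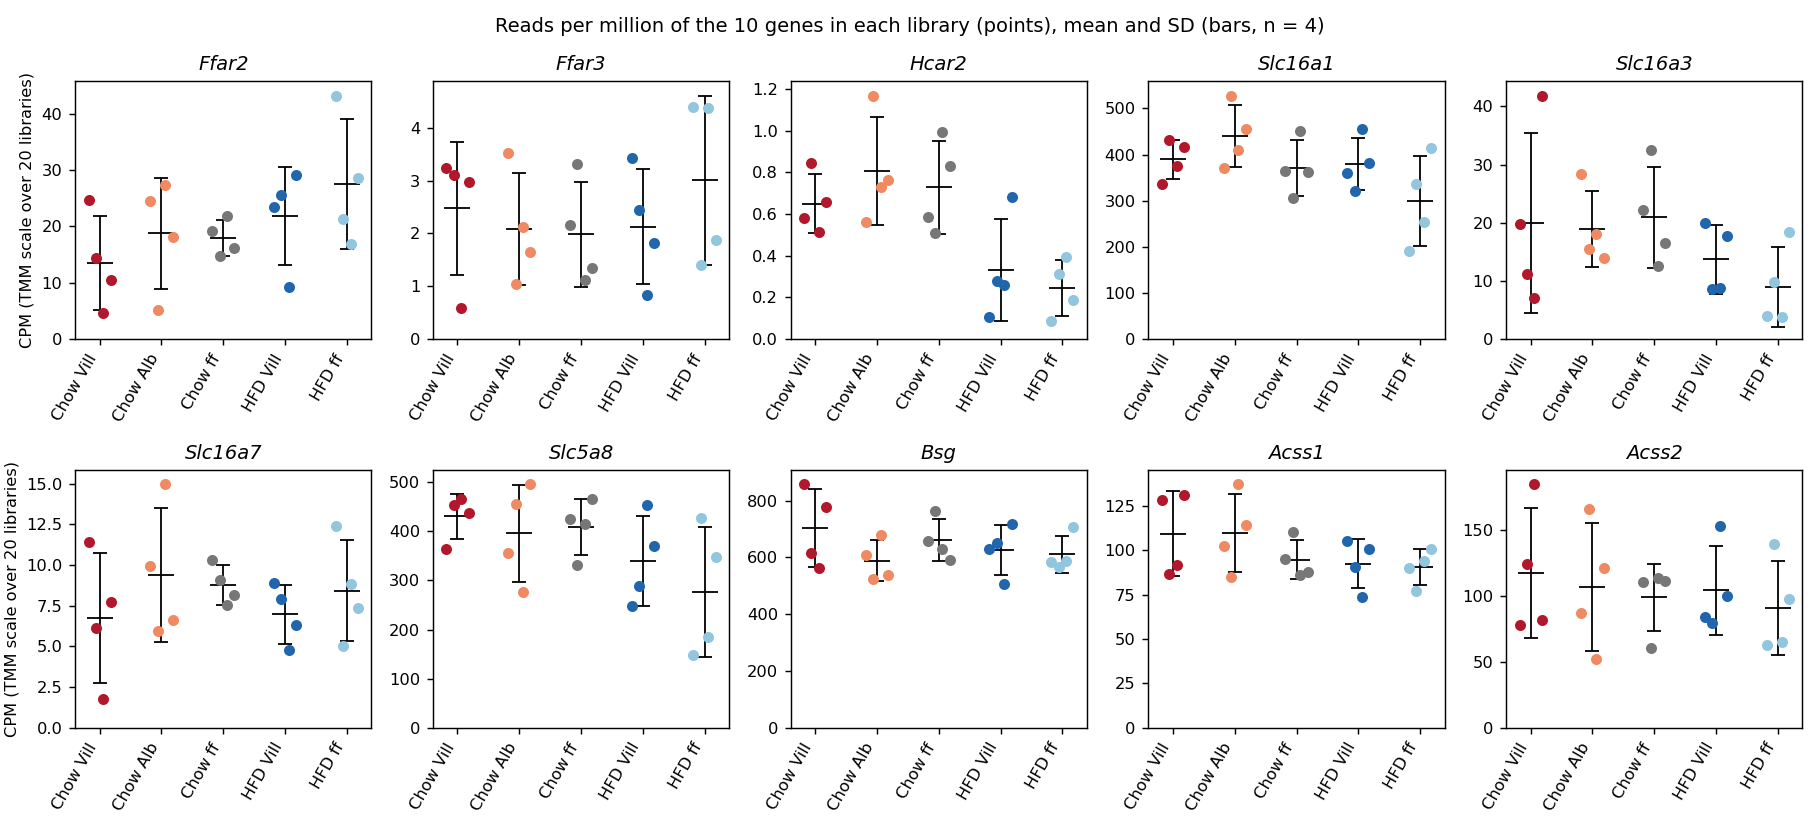
CPM of each of the 10 genes in each library (points), with the mean and SD of 4 libraries as bars, for Chow Vill, Chow Alb, Chow ff, HFD Vill and HFD ff. Groups on the same diet overlap for every gene, and the HFD libraries lie low for Hcar2, at 0.0846 to 0.681 CPM.

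Among the carriers, Slc16a1 (ENSMUSG00000032902, chr3:104545984-104565778, plus strand) encodes MCT1, which moves butyrate, propionate, acetate and lactate together with protons. It had 336, 431, 376 and 415 CPM in Chow Vill, 372, 528, 409.6 and 455 CPM in Chow Alb, and 363, 305, 452 and 361 CPM in Chow ff. It had 360.1, 322, 456 and 382 CPM in HFD Vill and 190.4, 336, 255 and 414 CPM in HFD ff. HFD ff 1 and 3 were the lowest of all 20 libraries, and groups on the same diet overlapped. The log2 fold change was 0.07 (SE 0.15, interval -0.24 to 0.39) in Chow Vill against ff. It was 0.25 (SE 0.15) in Chow Alb against ff and 0.34 (SE 0.23) in HFD Vill against ff, and the HFD value was 0.03 without HFD ff 1 and HFD ff 3.

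Slc5a8 (ENSMUSG00000020062, chr10:88721854-88765377, plus strand) encodes SMCT1, the apical carrier that moves monocarboxylates with sodium and is typical of the distal gut. It had 364, 454, 465 and 438 CPM in Chow Vill, 357, 455, 276 and 496 CPM in Chow Alb, and 426, 331, 414 and 465 CPM in Chow ff. It had 247, 289, 453 and 371 CPM in HFD Vill and 147, 428, 185 and 347 CPM in HFD ff. HFD ff 1 and HFD ff 3 were the lowest libraries, and groups on the same diet overlapped. Fitted on the log2 scale, the fold change was 0.07 (SE 0.18, interval -0.31 to 0.46) in Chow Vill against ff and -0.05 (SE 0.18) in Chow Alb against ff. It was 0.29 (SE 0.34) in HFD Vill against ff, and -0.18 without HFD ff 1 and HFD ff 3.

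Slc16a3 (ENSMUSG00000025161, chr11:120839306-120851694, plus strand) encodes MCT4, the carrier that exports lactate from glycolytic cells and is known as a target of hypoxia-inducible factor. It had 19.8, 11.3, 7.10 and 41.9 CPM in Chow Vill, 28.4, 15.5, 18.1 and 13.9 CPM in Chow Alb, and 22.2, 32.5, 12.5 and 16.4 CPM in Chow ff. It had 19.9, 8.51, 8.78 and 17.7 CPM in HFD Vill and 3.89, 9.79, 3.76 and 18.4 CPM in HFD ff. Chow Vill alone spanned 5.89-fold from its lowest to its highest library, against 6.51-fold for Slc16a7 in that group. Across the 20 libraries Slc16a3 had the widest spread among genes of the 10 with a mean of at least 5 CPM. The SD was 0.87 on the log2 scale, with a pseudocount of 0.5, against 0.20 for Bsg. That pseudocount narrows the spread of Hcar2, at 0.0846 to 1.17 CPM and an SD of 0.42. The log2 fold change of Slc16a3 was -0.06 (SE 0.49) in Chow Vill against ff and 0.61 (SE 0.53) in HFD Vill against ff, which was -0.02 without HFD ff 1 and HFD ff 3. The end of the gene overlaps Csnk1d on the other strand, which had 155 to 194 CPM in every library, and whether the counting used strand is not given in the sources used here, so reads of the pair may be mixed.

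Slc16a7 (ENSMUSG00000020102, chr10:125055139-125225334, minus strand) encodes MCT2, a carrier of high affinity for pyruvate and lactate. It had 11.5, 6.11, 1.76 and 7.71 CPM in Chow Vill, 9.97, 5.97, 15.0 and 6.62 CPM in Chow Alb, and 10.3, 9.08, 7.53 and 8.16 CPM in Chow ff. It had 8.88, 7.91, 4.75 and 6.31 CPM in HFD Vill and 12.4, 5.05, 8.87 and 7.33 CPM in HFD ff. Chow Vill 3 was far below every other library, and the groups overlapped. The log2 fold change was -0.38 (SE 0.45) in Chow Vill against ff and -0.30 (SE 0.31) in HFD Vill against ff, and the HFD value was 0.18 without HFD ff 1 and HFD ff 3.

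Bsg (ENSMUSG00000023175, chr10:79540325-79547803, plus strand) was the steadiest of the 10 genes. It had 858, 617, 564 and 776 CPM in Chow Vill, 609, 524, 680.4 and 537 CPM in Chow Alb, and 657, 764, 632 and 591 CPM in Chow ff. It had 629.9, 652, 508 and 718 CPM in HFD Vill and 584, 565, 589 and 706 CPM in HFD ff. Chow Vill 1 was the highest and HFD Vill 3 the lowest library, and the groups overlapped. In the fit, the log2 fold change was 0.09 (SE 0.15, interval -0.24 to 0.43) in Chow Vill against ff, -0.17 (SE 0.15) in Chow Alb against ff and 0.02 (SE 0.14, interval -0.29 to 0.33) in HFD Vill against ff.

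Among the activating enzymes, Acss1 (ENSMUSG00000027452, chr2:150460025-150510420, minus strand) encodes the mitochondrial acetyl-CoA synthetase. It had 128, 86.5, 91.4 and 131 CPM in Chow Vill, 102, 84.8, 137 and 114 CPM in Chow Alb, and 94.9, 110.4, 86.0 and 87.6 CPM in Chow ff. It had 105, 90.4, 73.7 and 100.5 CPM in HFD Vill and 90.2, 76.9, 93.8 and 101 CPM in HFD ff. The groups overlapped, with Chow Vill 1 and 4 and Chow Alb 3 on the high side. Its log2 fold change was 0.21 (SE 0.17) in Chow Vill against ff, 0.21 (SE 0.17) in Chow Alb against ff and 0.01 (SE 0.13, interval -0.29 to 0.32) in HFD Vill against ff.

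Acss2 (ENSMUSG00000027605, chr2:155359868-155427644, plus strand) encodes the acetyl-CoA synthetase of cytosol and nucleus, which feeds fatty acid synthesis and is a known target of the sterol-sensing factor SREBP. It had 78.1, 125, 185 and 82.2 CPM in Chow Vill, 87.4, 167, 52.1 and 122 CPM in Chow Alb, and 110.5, 60.8, 114 and 111 CPM in Chow ff. It had 84.3, 79.5, 154 and 99.8 CPM in HFD Vill and 62.8, 139, 64.9 and 97.6 CPM in HFD ff. Chow ff 2 was well below the other 3 ff libraries, and Chow Vill 3 and Chow Alb 2 were the highest of all. The log2 fold change was 0.25 (SE 0.36) in Chow Vill against ff, 0.11 (SE 0.36) in Chow Alb against ff and 0.19 (SE 0.30) in HFD Vill against ff, which was -0.17 without HFD ff 1 and HFD ff 3. Acss2 shares part of its span with Gss on the other strand, which had 89.7 to 208 CPM, so here too reads of a pair of genes may be mixed.

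Between diets, Hcar2 was the single gene of the 10 to pass the test. Its mean level was 0.287 CPM over the 8 HFD libraries and 0.689 CPM over the 8 chow Vill and ff libraries. The log2 fold change of HFD against chow, averaged over Vill and ff, was -1.28 (SE 0.35, interval -2.04 to -0.53), and it fell to 41.1% of the chow level with an adjusted p of 0.0155 by edgeR's quasi-likelihood test. Of the 10 genes 1 was thus called, 0 higher and 1 lower, against 26.6% of 19516 genes called, 12.5% higher and 14.1% lower, so the share of the 10 genes was below that of all genes. No gene of the 10 had HFD and chow libraries that did not overlap, against 5.93% of all genes. The call of Hcar2 held in each of the 16 fits that left out a library, with adjusted p-values of 0.00479 to 0.0348 and log2 fold changes of -1.59 to -1.13. The gene passed the filter on low counts of this fit through its chow libraries, where it is higher, since on HFD alone it failed it, and without the filter it had -1.28 with an adjusted p of 0.0284. Scaling to epithelial markers gave -1.19 and an adjusted p of 0.0702, which ends the call.

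The other receptors and the carriers had smaller or less certain differences between diets. Ffar2 averaged 24.7 CPM on HFD and 15.7 CPM on chow, a log2 fold change of 0.63 (SE 0.31, adjusted p = 0.143, edgeR), which passed in the fit without Chow Vill 1 (0.86, adjusted p = 0.04). Slc16a3 averaged 11.3 CPM on HFD and 20.4 CPM on chow, a log2 fold change of -0.91 (SE 0.41, adjusted p = 0.113, edgeR), which passed without HFD ff 4 (-1.21, adjusted p = 0.0391). Slc5a8 averaged 308 CPM on HFD and 420.0 CPM on chow, a log2 fold change of -0.48 (SE 0.19, adjusted p = 0.0832, edgeR), which passed without HFD ff 2 (-0.61, adjusted p = 0.0253). Ffar2, Slc16a3 and Slc5a8 each passed in only 1 of 16 fits that left out a library. Their adjusted p-values in these fits reached 0.271, 0.282 and 0.164 (edgeR). The remaining 6 genes had log2 fold changes of -0.20 (Slc16a1) to 0.18 (Ffar3), none of which passed. The 5 carrier genes, Bsg included, were all on the lower side in HFD, with a median of -0.20, beside -0.02 over all tested genes. Of all tested genes 48% were on the higher side. None of the 5 was called in the main fit, and Slc16a7 was at -0.02 (interval -0.65 to 0.60).

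Markers of other cells moved with this comparison. Of 7 macrophage markers 7 were called lower in HFD, and their summed level was 43.3 to 65.6 CPM in HFD Vill and 49.4 to 59.5 CPM in HFD ff, against 63.7 to 141 CPM in Chow Vill and 101 to 184 CPM in Chow ff, with none of the markers at 0. Of 6 adipocyte markers 1 was called lower, with a list median of -2.37. The sum of these markers was 10.6 to 37.7 CPM in HFD Vill and 20.7 to 43.9 CPM in HFD ff. It was 6.94 to 185 CPM in Chow Vill and 9.45 to 246 CPM in Chow ff. Of 7 neutrophil markers 2 were tested and 1 was called lower. This was Csf3r, the receptor of granulocyte colony-stimulating factor, with a log2 fold change of -1.76 (adjusted p = 0.009, edgeR), while Ly6g had -1.13 and did not pass. Their sum, made up mostly of Ly6g, was 17.5 to 106 CPM in HFD Vill and 1.44 to 92.4 CPM in HFD ff, against 3.95 to 149 CPM in Chow Vill and 6.14 to 194 CPM in Chow ff, and the defining neutrophil genes S100a8, S100a9 and Retnlg were at 0 to 0.759 CPM in all libraries. Of 6 fibroblast markers 4 were called lower, of 7 goblet cell markers 3 and of 6 B and plasma cell markers 1, with list medians of -1.14, -1.13 and -1.37. Of 8 epithelial markers 0 were called. Of 4 tested posterior Hox genes, 4 had a log2 fold change below 0 and 1 was called lower, with a median of -1.65. The sum of these Hox genes was 135 to 384 CPM in HFD Vill and 3.26 to 341 CPM in HFD ff. In Chow Vill it was 33.6 to 573 CPM and in Chow ff 56.9 to 445 CPM. HFD ff 1 and HFD ff 3, set apart above, had the lowest sums, at 3.26 and 20.8 CPM. Mitochondrial genes took 4.5% to 9.75% of the reads in HFD libraries, against 3.14% to 3.92% in Chow Vill and Chow ff. The part of these cells and of RNA composition in the lower Hcar2 level was not tested.

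The other genes of the pathway come from 7 lists written for this tissue with earlier results known. In HFD against chow 17 of their 57 tested genes were called, 6 higher and 11 lower, a share of 29.8% that lies near the 26.6% of all genes. In the genotype comparisons 0 were called, where at most 0.00564% of all genes were. Of 4 tested receptors of related acids (6 listed), 1 was called: Hcar1, the lactate receptor, was lower in HFD (log2 fold change -0.74, adjusted p = 0.0269, edgeR), while Ffar4, Ffar1 and Gpr35 did not pass. Of 12 tested monocarboxylate carriers and partners (14 listed), 2 were called higher and 1 lower. Slc16a4, an orphan carrier of the MCT family, was higher at 1.03 (adjusted p = 5.57e-05) and Mpc1, a subunit of the mitochondrial pyruvate carrier, at 0.99 (adjusted p = 7.71e-05), while Emb, the embigin gene whose product accompanies MCT2, was lower at -0.68 (adjusted p = 0.0142, all edgeR). Of 5 tested acyl-CoA synthetases and hydrolases for short and medium chains (10 listed), 0 were called in either direction.

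Of 8 enzymes of butyrate oxidation and ketone metabolism, 1 was called higher and 1 lower in HFD. These were Acat1, the mitochondrial thiolase, at 0.37 and Oxct1, which activates ketone bodies, at -0.36. Of 7 acetyl-CoA and lactate enzymes, 2 were called higher (Pdha1 at 0.40 and Pdhb at 0.22, subunits of pyruvate dehydrogenase) and 2 lower (Cs, citrate synthase, at -0.37 and Crat, carnitine acetyltransferase, at -0.24). Of 11 sterol regulatory element targets, 1 was called higher (Idi1, of isoprenoid synthesis, at 0.53) and 3 lower (Scd1 at -1.27, Fasn at -0.46 and Srebf2 at -0.40). Acss2, which belongs to the same known set, had -0.17. Of 10 genes of ion transport in absorptive colonocytes, 3 were called lower (Aqp8 at -1.83, Car4 at -1.17 and Scnn1a at -0.91) and 0 higher. The median of the list was -0.85, beside -0.02 over all tested genes. In HFD ff 1 and HFD ff 3, set apart above, Aqp8 had 4.44 and 36.5 CPM, against 134 to 558 in the other HFD libraries. Scnn1a had 28.8 and 32.8 CPM there, against 102 to 150, and Car4 163 and 358 CPM, against 343 to 907. In Chow Vill and Chow ff, Aqp8 had 374 to 1416 CPM, Scnn1a 106 to 240 and Car4 589 to 1346. The part of these 2 libraries in the changes was not tested. In Chow Alb against ff the 11 sterol targets all had a log2 fold change below 0, with a median of -0.44, but 0 were called, the smallest adjusted p being 0.855 for Idi1 (edgeR), and Acss2 had 0.11.

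Within chow, Acss2, Slc5a8, Bsg and Acss1 varied with the level of posterior Hox genes, as did many genes of the tissue. The summed CPM of Hoxa13, Hoxb13, Hoxd12 and Hoxd13, known as markers of the distal end of the gut, served as a measure of position and ran from 33.6 in Chow Vill 1 to 711 in Chow Alb 2. This relation was chosen after the values were seen. It was computed on the log2 scale over the 12 chow libraries for 19684 genes, with p-values adjusted over all of them. By Pearson's r 4 of the 10 genes passed, 2 higher and 2 lower in distal libraries, against 16.9% of all genes, 8.57% higher and 8.37% lower. By Spearman's rho 5 of the 10 passed, 2 higher and 3 lower, against 19.1% of all genes, 9.75% higher and 9.33% lower.

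Acss2 was higher in more distal libraries (Pearson's r = 0.876, permutation p = 0.00017, adjusted p = 0.00485; Spearman's rho = 0.909, permutation p = 0.00015, adjusted p = 0.00388), and 3.85% of all genes had an r at least as far from 0. Slc5a8 was likewise higher (r = 0.843, permutation p = 0.00116, adjusted p = 0.0147; rho = 0.860, permutation p = 0.0006, adjusted p = 0.00887), with 5.95% of all genes as far from 0. Bsg was lower in more distal libraries (r = -0.825, permutation p = 0.00158, adjusted p = 0.0177; rho = -0.874, permutation p = 0.00048, adjusted p = 0.00771), with 7.5% of all genes as far from 0. Leaving out the 2 libraries farthest from the median position, Chow ff 2 and Chow Vill 1, gave r = 0.944 for Acss2, 0.919 for Slc5a8 and -0.619 for Bsg. With each group centred on its own mean, r was 0.897 for Acss2, 0.887 for Slc5a8 and -0.920 for Bsg.

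Acss1 was lower in distal libraries and passed by Pearson's r alone (r = -0.727, permutation p = 0.00798, adjusted p = 0.0483; rho = -0.699, permutation p = 0.014, adjusted p = 0.0644), so the enzyme genes Acss1 and Acss2 had coefficients of opposite sign. Ffar3 passed by rank alone (r = -0.674, permutation p = 0.0167, adjusted p = 0.0758; rho = -0.797, permutation p = 0.00297, adjusted p = 0.0237). Slc16a7 also passed by rank alone (r = -0.669, permutation p = 0.0117, adjusted p = 0.0609; rho = -0.825, permutation p = 0.00161, adjusted p = 0.0162). The other 4 genes did not pass. Ffar2 had r = -0.629 (permutation p = 0.0287, adjusted p = 0.106) and rho = -0.657 (permutation p = 0.0243, adjusted p = 0.0916). Slc16a3 had r = -0.495 (permutation p = 0.105, adjusted p = 0.24) and rho = -0.685 (permutation p = 0.0172, adjusted p = 0.0733). Slc16a1 had r = 0.623 (permutation p = 0.0317, adjusted p = 0.113) and rho = 0.580 (permutation p = 0.0523, adjusted p = 0.152). Hcar2 had r = 0.508 (permutation p = 0.0901, adjusted p = 0.219) and rho = 0.538 (permutation p = 0.0761, adjusted p = 0.195). Without Chow ff 2 and Chow Vill 1, r was -0.716 for Acss1, -0.575 for Ffar3, -0.724 for Slc16a7, -0.726 for Ffar2, -0.452 for Slc16a3, 0.293 for Slc16a1 and 0.323 for Hcar2.

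Markers of other cells moved along the same axis. In the 3 least distal chow libraries, Chow Vill 1, Chow Alb 3 and Chow ff 2, epithelial markers summed to 17300 to 18600 CPM, against 11700 to 18300 CPM in the other 9. Adipocyte markers summed to 185 to 246 CPM in these 3 libraries, against 6.94 to 79.9 CPM in the other 9. Small intestine markers had sums of 104 to 396 CPM, against 21.0 to 59.8 CPM, and macrophage markers 63.7 to 101 CPM, against 105 to 184 CPM. Neutrophil markers, mostly Ly6g, had 3.95 to 9.42 CPM, against 36.8 to 222 CPM. Sums that overlapped were those of B and plasma cells (230 to 408 against 261 to 1250 CPM), smooth muscle (4150 to 11200 against 1000 to 8710 CPM) and neurons and glia (64.4 to 143 against 19.5 to 162 CPM). The part of these cells in the relations was not tested.

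On HFD, HFD ff 1 and HFD ff 3 formed a cluster apart, with summed posterior Hox levels of 3.26 and 20.8 CPM against 135 to 384 in the other 6 libraries, so the relation was computed over these 6. None of the 10 genes passed the exact permutation test after adjustment over 17713 genes, and 0% of all genes did, by r or by rho; 15.2% of all genes had an unadjusted p under 0.05 by r. The coefficients of 5 genes had an unadjusted p under 0.05. Slc16a7 had r = -0.988 (exact permutation p = 0.00278, adjusted p = 0.159) and rho = -0.943 (exact permutation p = 0.0167, adjusted p = 0.322). Acss2 had r = 0.955 (exact permutation p = 0.00833, adjusted p = 0.194) and rho = 0.829 (exact permutation p = 0.0583, adjusted p = 0.427). Slc5a8 had r = 0.918 (exact permutation p = 0.0139, adjusted p = 0.219) and rho = 0.943 (exact permutation p = 0.0167, adjusted p = 0.322). Ffar3 had r = -0.911 (exact permutation p = 0.00417, adjusted p = 0.18) and rho = -0.943 (exact permutation p = 0.0167, adjusted p = 0.322). Acss1 had r = -0.894 (exact permutation p = 0.0181, adjusted p = 0.24) and rho = -0.943 (exact permutation p = 0.0167, adjusted p = 0.322). The sign of these 5 was that seen on chow. Without the 2 libraries farthest from the median, HFD Vill 3 and HFD ff 2, the 4 that remained gave -0.950 for Slc16a7, 0.631 for Acss2, 0.819 for Slc5a8, -0.753 for Ffar3 and -0.138 for Acss1, so that of Acss1 rests on those libraries.

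Bsg, which passed on chow, had r = -0.749 on HFD (exact permutation p = 0.0944, adjusted p = 0.413) and rho = -0.486 (exact permutation p = 0.356, adjusted p = 0.685), and its r turned to 0.780 without the same 2 libraries. Ffar2 had r = -0.713 (exact permutation p = 0.0542, adjusted p = 0.335) and rho = -0.486 (exact permutation p = 0.356, adjusted p = 0.685), and its r turned to 0.763 without them. Slc16a3, Slc16a1 and Hcar2 had r = -0.601, 0.339 and 0.352, with exact permutation p-values of 0.201, 0.486 and 0.558 and adjusted p-values of 0.543, 0.752 and 0.797.

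Within groups, the least distal library held the lowest Slc5a8 level in 5 of 5 groups and the lowest Acss2 level in 4 of 5, and it held the highest Slc16a7 and the highest Ffar3 level in 4 of 5 each. These counts use the same position measure as the relations above, so they are no separate support. They were not made over all genes, of which 33.4% had an unadjusted permutation p under 0.05 by r on chow. With position as a covariate, Slc5a8 passed in HFD against chow (log2 fold change -0.32, SE 0.10, adjusted p = 0.0243, edgeR), and Hcar2 kept its call (-1.16, adjusted p = 0.0266, edgeR). In these values too, diet, age and sex cannot be told apart.

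**Figure D4:**
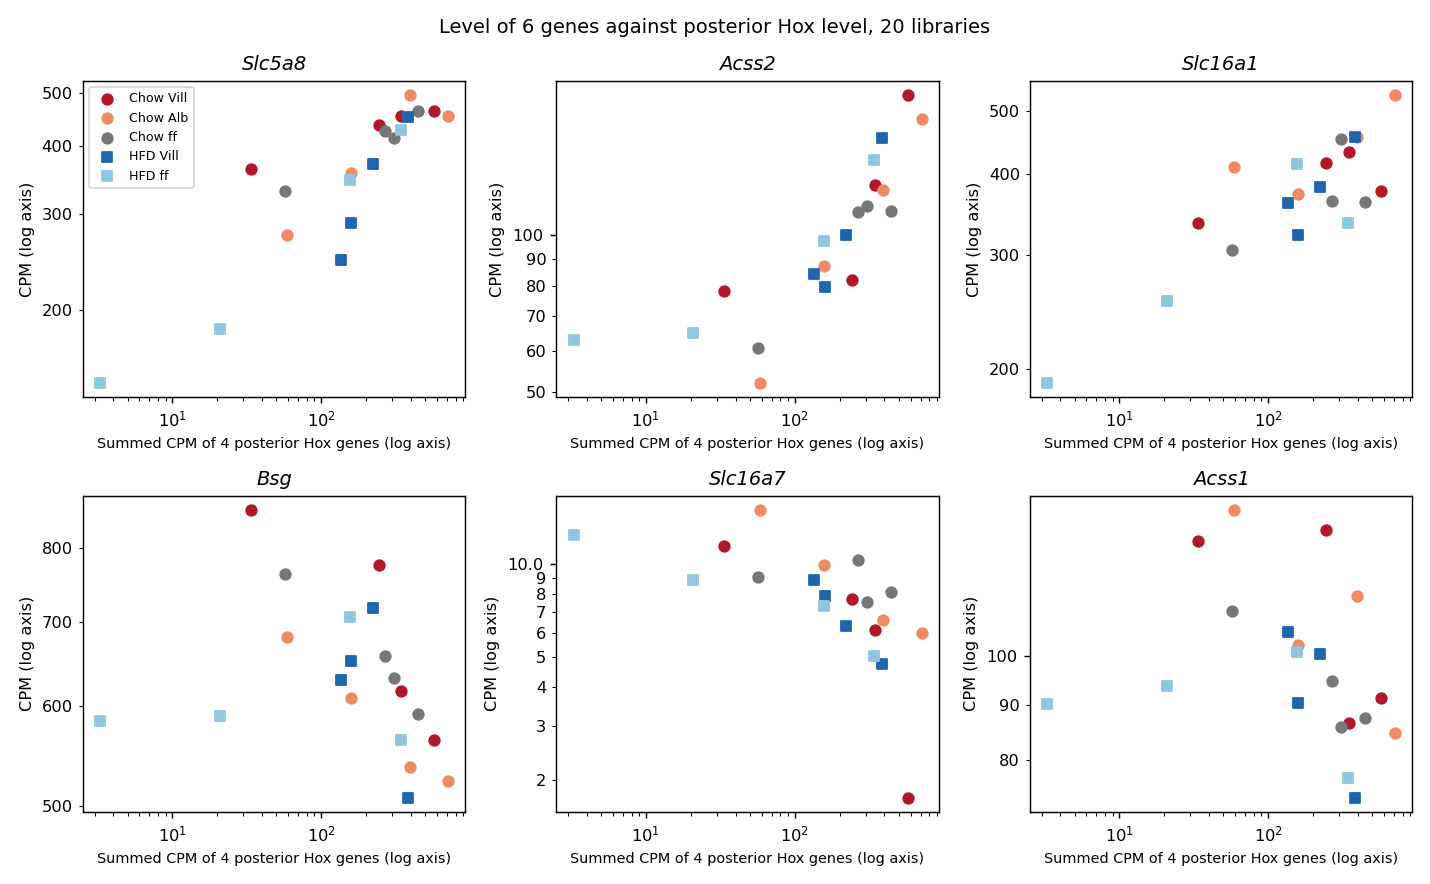
CPM of 6 of the 10 genes (y axes, log) against the summed CPM of Hoxa13, Hoxb13, Hoxd12 and Hoxd13 (x axes, log) in 20 libraries; circles are chow, squares HFD, colours the 5 groups. Slc5a8 and Acss2 climb with the posterior Hox level, while Slc16a7 descends, over the 12 chow libraries (r = 0.843, 0.876 and -0.669) as over 6 HFD libraries (r = 0.918, 0.955 and -0.988), where 0 of the 10 genes passed the test. On chow the r of Slc5a8 and Acss2 passed the permutation test, and that of Slc16a7 did not (adjusted p = 0.0609).

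For the 3 genes with the widest spread among those of the 10 with a mean of at least 5 CPM, the genes with the most similar pattern over 20 libraries were sought among 11841 genes, by the mean absolute difference of centred log2 values. For Slc16a3, whose own mean deviation was 0.68, these were Gprc5a at 0.27, Ppm1j at 0.31 and Pmp22 at 0.31. For Ffar2, with its own deviation at 0.59, they were Cgref1 at 0.32, Cpne8 at 0.32 and Cldn15 at 0.36. For Slc16a7, at 0.40, they were Grb14 at 0.19, Fads1 at 0.20 and Plxnb1 at 0.22.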

How the data were processed

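The authors deposited read counts per gene and library in tables for chow and for HFD. Per the file headers these tables also hold 28 further per-sample columns, not used here, and the authors' deposited log2 fold changes and p-values, which were only set beside the new tests. Genome build mm39 and the tools edgeR 3.22.5, DESeq2 1.20.0, featureCounts 1.5.0-p3 and HISAT2 2.0.5 are listed, with no role given, in the submitters' processing notes.

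Counts were tested with edgeR 4.0.16 under R 4.3.3 (quasi-likelihood F test, TMM scaling, default filter on low counts, Benjamini-Hochberg adjustment over all tested genes, threshold 0.05). The chow comparisons came from a fit of 12 libraries, HFD Vill against ff from 8, and the diet comparisons from 16. Intervals are at 95%. CPM used TMM factors over the 31184 genes common to the tables, and CPM per kb the deposited gene length. A pseudocount of 0.5 entered log2 CPM. Single values of groups of 4 were compared by a 2-sided exact permutation test over 70 assignments, and relations with position by 2-sided permutation (100000 reassignments on chow, exact on HFD), adjusted over all tested genes except the Hox genes summed. DESeq2 1.42.0, limma-voom (limma 3.58.1), other scalings, no filter, a replicate block and left-out libraries were alternatives. The relation with position, the position covariate and the fits without Chow ff 2 and Chow Vill 1 were added after seeing the data. The scripts were tested on simulated data. Members and lists were chosen with earlier results of these data known. All 10 genes are described, and other genes are named when called, or up to 4 a list by smallest p. Every pair of libraries within a group differed by more than sampling noise (lowest chi-square per degree of freedom 34.6).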

Additional observations from a re-analysis of the deposited data

Results flagged for a closer look

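Of 50 sets of 4 libraries (10 genes in 5 groups), 2 held a library far from the others by Dixon's criterion at 95%, a criterion that chance meets in about 1 of 20 sets. Ffar3 was lowest in Chow Vill 3 at 0.586 CPM, while the other 3 Chow Vill libraries had 2.97 to 3.24 CPM. The gap took 0.9 of the range of the group. Acss2 was lowest in Chow ff 2 at 60.8 CPM, while the other 3 Chow ff libraries had 110.5 to 114 CPM, and the gap took 0.941 of the range. Chow Vill 3 had the highest summed posterior Hox level of its group (573 CPM), and Chow ff 2 the lowest of its own (56.9 CPM). Neuron and glia markers summed to 19.5 CPM in Chow Vill 3, against 51.0 to 120 CPM in the other Chow Vill libraries. Smooth muscle markers summed to 1000 CPM there, against 3510 to 6530 CPM. The part of position and of these cells in the flagged values was not tested.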

How the results depend on the processing

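Of 1134 values of the 10 genes under alternative settings, 632 of them from fits that left out a library, 1024 kept their direction and their side of the threshold, 61 turned sign in fits that left out a library, 44 turned sign elsewhere, 4 passed the threshold and 1 no longer passed. None of those that turned sign was called with either sign, and the cause was not tested. DESeq2 and DESeq2's size factors in edgeR turned none.

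Counts of called genes moved more. For Chow Vill against ff, 1 called gene became 4 with DESeq2, 2 without the filter and 0 with a replicate block. For Chow Alb against ff, 0 became 4 with DESeq2. For Chow Vill against Alb, 1 became 65 with DESeq2 and 0 with the block. For HFD Vill against ff, 1 became 4 with DESeq2 and 2 without HFD ff 1 and HFD ff 3. For HFD against chow over ff and Vill, 5183 (2439 higher, 2744 lower) became 1944 (1162 higher, 782 lower) when scaled to epithelial markers, and leaving out a library gave 4248 to 5084. Same-numbered libraries correlated at -0.76 to 0.68 after centring, and libraries of different number at -0.77 to 0.81. Same-numbered libraries thus did not stand out, though these correlations cannot exclude a shared origin behind a number. The block is given here alone.

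Log2 fold changes that turned sign are given next. Scaled to epithelial markers, these were Slc16a1 (-3e-04) and Slc5a8 (-0.0024) in Chow Vill against ff, Ffar2 (-0.020) in Chow Alb against ff, Slc16a3 (-0.14) in Chow Vill against Alb, Bsg (-0.22) and Acss1 (-0.24) in HFD Vill against ff, Ffar2 (-0.14) and Slc16a7 (-0.062) in the difference between diets and Slc16a7 (0.16) in HFD against chow. Without Chow ff 2 and Chow Vill 1 they were Slc16a3 (0.23) in Chow Vill against ff, and Ffar2 (-0.024), Slc16a3 (0.16) and Acss2 (-0.063) in Chow Alb against ff. With limma-voom they were Ffar2 (-0.27) and Slc16a7 (-0.031) in Chow Alb against ff, Slc16a3 (-0.30) in Chow Vill against Alb, Acss2 (0.012) in the difference between diets and Slc16a7 (0.11) in HFD against chow. With the replicate block they were Ffar2 (-0.040) in Chow Alb against ff, Slc16a3 (-0.13) in Chow Vill against Alb and Slc16a7 (0.022) in HFD against chow. Without the filter Acss1 had 0.0064 in Chow Vill against Alb.

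With position as a covariate they were Ffar2 (-0.12) and Slc16a7 (-0.0012) in Chow Alb against ff, Ffar3 (0.29), Slc16a7 (0.21), Slc5a8 (-0.17) and Acss2 (-0.19) in HFD Vill against ff, Ffar3 (0.0034), Slc5a8 (-0.16) and Bsg (0.045) in the difference between diets, and Ffar3 (-0.23) and Acss2 (0.076) in HFD against chow. Without HFD ff 1 and HFD ff 3 they were Ffar3 (0.39), Slc16a3 (-0.024), Slc16a7 (0.18), Slc5a8 (-0.18), Bsg (-0.0097) and Acss2 (-0.17) in HFD Vill against ff, Ffar3 (0.072), Slc16a1 (-0.049) and Slc5a8 (-0.26) in the difference between diets, and Ffar3 (-0.27) and Acss2 (0.018) in HFD against chow.

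Leaving out a library in turn, sign changed in Chow Vill against ff for Slc16a1 (-0.014 to 0.17), Slc16a3 (-0.74 to 0.23), Slc5a8 (-0.022 to 0.13), Hcar2 (-0.33 to 0.0067), Bsg (-0.03 to 0.18) and Acss2 (-0.058 to 0.38). In Chow Alb against ff it changed for Ffar2 (-0.17 to 0.38), Slc16a3 (-0.40 to 0.17), Acss2 (-0.18 to 0.34), Ffar3 (-0.31 to 0.45), Slc5a8 (-0.16 to 0.10), Hcar2 (-0.079 to 0.34) and Slc16a7 (-0.22 to 0.27). In Chow Vill against Alb it changed for Slc16a3 (-0.60 to 0.34), Slc5a8 (-0.034 to 0.23), Acss1 (-0.13 to 0.11) and Acss2 (-0.18 to 0.41), and in HFD Vill against ff for Acss1 (-0.058 to 0.11), Acss2 (-0.068 to 0.46) and Bsg (-0.052 to 0.11). In the difference between diets it changed for Slc16a7 (-0.22 to 0.47), Acss2 (-0.31 to 0.25), Ffar2 (-0.21 to 0.53), Bsg (-0.16 to 0.044) and Hcar2 (-0.0024 to 0.92), and in HFD against chow for Slc16a7 (-0.18 to 0.16).

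Depth limits Hcar2, at 2 to 15 reads in an HFD library, and Ffar3, at 16 to 125 reads in any library.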
